A study of Mus musculus with 12 samples.

Results

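Anti-IgM changed gene expression less in B cells carrying a mutant E12 than in B cells carrying wild-type E12, and the values below describe that difference of responses across the whole array. For each probe the difference is the anti-IgM minus untreated change with mutant E12 minus the same change with wild-type E12, in log2 units. A positive difference means that the response with the mutant lay above that with the wild-type form. All 12 arrays of the series entered, and all 19715 probes of 45281 that stood above background on at least 3 arrays were tested, with no choice made on their values beyond that. They represent 10050 named genes, each given by its brightest tested probe.

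Each of the 4 groups held 3 arrays. Cells with the mutant were treated with anti-IgM or left untreated, and so were cells with wild-type E12. All cells were splenic B cells from 8-week-old C57BL/6 mice heterozygous for a deletion of the E2A gene, so an endogenous E2A allele remained in every group. The cells were kept in CD40L (200 ng/ml) and IL-4 (5 ng/ml), first for 14 h, then through 2 retroviral infection rounds of 12 h with added LPS (200 ng/ml) and a further 22 h. Anti-IgM (2.5 μg/ml) was given for 3 h where stated, and GFP-positive infected cells were sorted. The residues changed in the mutant, and whether replicates came from separate mice or cultures, are not given in the labels, so the p-values measure only the spread between arrays, which may be technical.

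E12 is 1 of the E proteins, a helix-loop-helix family of transcription factors, and a splice form of the Tcf3 (E2A) gene product. It binds the E-box sequence CANNTG as a dimer and is needed for B cell development and activation. Crosslinking of the antigen receptor by anti-IgM raises cytosolic calcium, and calcium-loaded calmodulin can bind the basic region of E proteins and block their contact with DNA. The series title calls the mutant resistant to calmodulin. The interaction of form with anti-IgM gives how much the receptor response differed between cells with this mutant and cells with wild-type E12. The deposited intensity distributions and the Tcf3 signal also differed between the forms. The part of calmodulin binding in the difference of responses was not tested.

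Up to the brightest probes, the deposited arrays shared their intensity distribution within each form but not between forms, with a median intensity of 6.40 in the mutant arrays and 6.93 to 6.94 in the wild-type arrays. Levels below are log2 (intensity + 50) after joint quantile normalization of the 12 arrays. Form, any array batch and the authors' normalization therefore cannot be told apart in a level, whereas each response compares arrays of the same form. Within groups the correlation between arrays over probes was 0.9784 to 0.9969, and the median SD of a probe was 0.172 and 0.173 in the mutant anti-IgM and untreated groups, against 0.0994 and 0.161 in the wild-type anti-IgM and untreated groups. Depth in the sense of counts does not apply to arrays. Their number limits the precision, and the median standard error of a difference was 0.207 log2 units over all genes. Of 11 listed B cell markers 7 were tested and were detected in every group, with a summed intensity of 60970 to 67830 in the mutant arrays and 78530 to 103600 in the wild-type arrays. Of the 7, Cd22 and Cd79b had a positive difference, against 3.17% of all genes. The Cd79b call (0.80 ± 0.20) was lost without any of 9 single arrays (adjusted p up to 0.0994), and the count of 2 was 1 without any of 9 single arrays and 4 without wild-type untreated replicate 1.

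Tcf3 itself had log2 levels of 11.27, 12.79 and 12.54 on the mutant anti-IgM arrays and 11.90, 12.31 and 12.93 on the mutant untreated arrays, against 11.17, 10.45 and 10.34 on the wild-type anti-IgM arrays and 10.50, 10.61 and 11.01 on the wild-type untreated arrays. Every mutant array lay above every wild-type array, and treated and untreated arrays overlapped within each form. The probe reads endogenous and retroviral transcript together as far as the files tell. The response of Tcf3 differed by -0.13 ± 0.50 between the forms (SE; 95% interval -1.20 to 0.94; adjusted p = 0.932 by limma, n = 3 arrays a group), and its second tested probe gave -0.06. Whether the higher Tcf3 signal of the mutant arrays plays a part in the differences below was not tested.

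The response differed between the forms for 998 of 19715 probes (5.06%) at a Benjamini-Hochberg adjusted p under 0.05 in the limma fit. Differences were positive for 489 probes (2.48%) and negative for 509 (2.58%). Of the 998, 132 have no single gene symbol. Counted by gene at its brightest probe, 628 of 10050 genes passed (6.25%), 319 with a positive difference (3.17%) and 309 with a negative one (3.07%). The median over all genes was 0.01 for the difference, -0.005 for the mutant response and -0.02 for the wild-type response. With single arrays left out the probe count ranged from 456 to 1219, and it moved by more than 1.5 times without mutant anti-IgM replicate 2 (586), mutant untreated replicate 2 (534), wild-type anti-IgM replicate 1, 2 or 3 (456, 501 and 528) or wild-type untreated replicate 2 (639). It was 462 without joint quantile normalization, 489 with an offset of 16, 2136 with a replicate block within each form and 3308 with weights per array. Of the 13150 probes detected on all 12 arrays, 893 passed when tested alone. The 998 probes kept the sign of their difference under all 24 alternative settings wherever they were tested, but they had been chosen by that difference. Weights per group, another variance prior, replicate blocks and other probe filters leave the fitted difference unchanged, so they could not turn a sign.

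The 2 responses behind each difference were unequal in size. Anti-IgM changed 20 probes past the threshold with mutant E12 (0.101%), 18 higher (0.0913%) and 2 lower (0.0101%), against 5326 with wild-type E12 (27%), 2740 higher (13.9%) and 2586 lower (13.1%). The mutant count was 1552 at an unadjusted p under 0.05, and 2 to 57 adjusted calls were made with single arrays left out. It was 208 with a replicate block within each form, where the wild-type count was 6811, and 405 with weights per array, where the wild-type count was 9045. Same-numbered treated and untreated arrays all correlated above 0.1 in their deviations from the group means with the wild-type form (0.284, 0.194 and 0.144) but not with the mutant (0.582, -0.0242 and 0.519). Differently numbered arrays correlated at -0.258 to 0.155 with the wild-type form and at -0.733 to 0.466 with the mutant. By gene, 18 passed with the mutant (0.179%), 17 higher (0.169%) and 1 lower (0.00995%), against 3067 with the wild-type form (30.5%), 1484 higher (14.8%) and 1583 lower (15.8%). Over all genes the responses had an SD of 0.21 log2 units with the mutant and 0.52 with the wild-type form.

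Of the 628 genes whose response differed, 619 also passed in the wild-type response, which shares its 6 arrays with the difference. All 311 positive ones among them fell in wild-type cells and all 308 negative ones rose there. The mutant response had the same sign and was smaller in 490 of the 628, had the same sign and was larger in 1, and had the opposite sign in 137. In 28 of those 137 the mutant response reached 0.25 log2 units, and in 4 both responses reached 0.5. The median size of the response was 0.23 log2 units with the mutant and 1.16 with the wild-type form. The mutant response was a median share of 0.155 of the wild-type response, with quartiles of 0.0287 and 0.257. These genes were chosen by that difference, so the small shares follow in part from the choice. Differences of at least 1 log2 unit were seen in 291 genes and of at least 2 in 8.

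**Figure D1:**
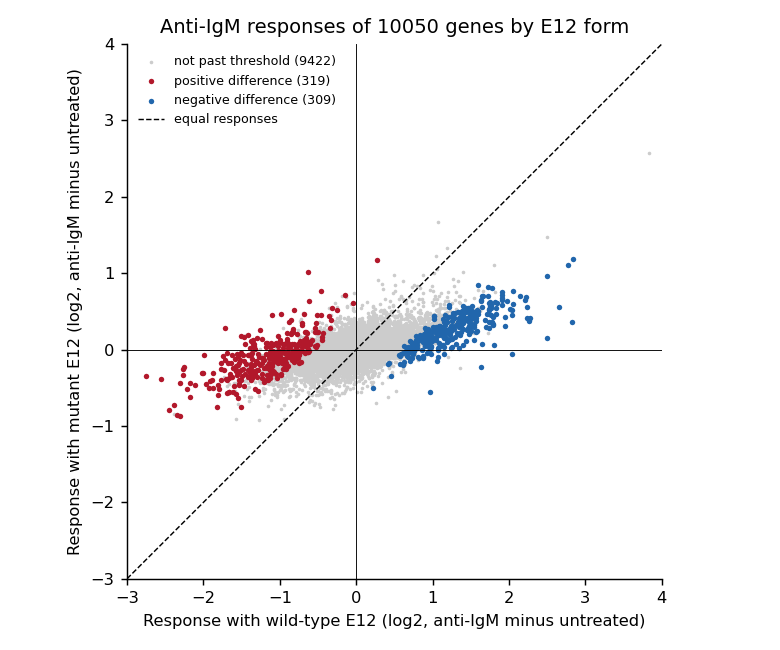
Each point is 1 of 10050 genes, with its anti-IgM response with wild-type E12 on the x axis and with mutant E12 on the y axis, both as log2 anti-IgM minus untreated. The 319 genes with a positive difference (red) lie above the line of equal responses, mostly left of 0, and the 309 with a negative difference (blue) lie below it, mostly right of 0, both closer to the horizontal axis than to that line.

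The same limma fit was used to ask from how many probes a common share of the wild-type response would depart. Against a share of 1, which is the difference itself, 998 probes departed. Against a share of 0.75, 151 did (0.766%). Against shares of 0.5 and 0.25, 0 departed by limma (0%), while 1226 and 713 had an unadjusted p under 0.05, and against a share of 0, which is the mutant response itself, 20 departed and 1552 had an unadjusted p under 0.05. With 3 arrays a group a count of 0 does not show that any one share holds for every gene. The counts of 0 did not hold under every alternative. With a replicate block within each form 754 probes departed from a share of 0.75, 54 from 0.5 and 18 from 0.25, and under the other offsets and without joint quantile normalization these counts were 39 to 227, 0 to 3 and 0 to 4.

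Among genes that changed by at least 1 log2 unit in wild-type cells, 371 rose and 324 fell. The median response of the 371 was 0.39 with the mutant and 1.27 with the wild-type form, and 217 of them (58.5%) differed past the threshold. The 324 that fell had median responses of -0.26 with the mutant and -1.23 with the wild-type form, and 195 (60.2%) differed. The mutant response kept the wild-type sign for 363 of 371 and 289 of 324. A mutant response of at least 0.75 of the wild-type one was seen in 6 of the 371 and in 0 of the 324. These genes were chosen by the wild-type response, a term of the difference. The percentages and smaller mutant medians thus follow in part from the choice.

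Of the 309 genes with a negative difference, 308 rose in wild-type cells. The 12 with the smallest p had wild-type responses from 1.54 to 2.83 log2 units and mutant responses from -0.06 to 1.11, and they are described with the lists they belong to. Plau encodes urokinase, a secreted protease that activates plasminogen. Its levels were 6.28, 6.38 and 6.35 on the mutant anti-IgM arrays and 6.08, 5.96 and 5.88 on the mutant untreated arrays, against 9.12, 8.74 and 8.38 on the wild-type anti-IgM arrays and 5.85, 5.91 and 5.99 on the wild-type untreated arrays. Only the wild-type anti-IgM arrays stood high, and neither form's groups overlapped. The response was 0.36 with the mutant and 2.83 with the wild-type form, a difference of -2.46 ± 0.22 log2 units (± gives the SE here and below, n = 3 arrays a group; adjusted p = 0.000188). It was detected on 1 of 3 arrays of each untreated group.

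Xcl1, the chemokine lymphotactin, had 5.85, 5.88 and 5.61 with mutant E12 and anti-IgM and 5.80, 5.80 and 5.56 with mutant E12 untreated, all below the detection limit. In wild-type cells it had 7.50, 7.45 and 7.51 with anti-IgM and 5.68, 5.69 and 5.70 untreated, the untreated arrays again below the limit. Wild-type Xcl1 was thus at least 10.2-fold higher with anti-IgM, measured against the detection limit, and no fold is given for the mutant. Xcl1 entered the test only through the wild-type anti-IgM arrays, the group where it was high, so passing the filter implied a difference, and its adjusted p (0.000188 by limma) is given with no fitted difference. Csf1, the macrophage growth factor M-CSF, had 5.67, 6.29 and 6.39 and 6.01, 6.29 and 6.24 on the mutant anti-IgM and untreated arrays, which overlapped, against 8.46, 8.06 and 7.97 and 6.32, 6.20 and 5.86 on the wild-type anti-IgM and untreated arrays, which did not. Its difference was -2.10 ± 0.27 (adjusted p = 0.00123). Plau, Xcl1 and Csf1 were the 3 of 14 tested members of the list of secreted cytokines and chemokines that differed. Plau, a protease, is neither. All 3 were negative, against 3.07% of all genes, and the list's median response was 0.11 with the mutant and 0.88 with the wild-type form. Without Xcl1 the count was 2 of 13, and without wild-type untreated replicate 1 it was 7 of 14.

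Srm, spermidine synthase of the polyamine pathway, had levels of 11.145, 11.001 and 11.053 on the mutant anti-IgM arrays and 10.56, 10.57 and 10.41 on the mutant untreated arrays, against 12.21, 11.91 and 11.97 on the wild-type anti-IgM arrays and 9.08, 9.62 and 9.43 on the wild-type untreated arrays. The mutant untreated level lay above the wild-type untreated one and the mutant anti-IgM level below the wild-type anti-IgM one, with no overlap between any of the 4 groups. The response was 0.55 with the mutant and 2.65 with the wild-type form (difference -2.10 ± 0.20, adjusted p = 0.000188), and both other probes differed likewise (-2.41 and -1.99). Slc19a1, the reduced folate carrier, had 9.20, 8.88 and 9.01 with anti-IgM and 8.40, 8.40 and 8.23 untreated in mutant cells, against 10.26, 10.23 and 10.30 with anti-IgM and 7.94, 8.03 and 8.16 untreated in wild-type cells. It is among the few genes that passed in both responses, at 0.69 with the mutant (adjusted p = 0.0471) and 2.22 with the wild-type form, and the difference was -1.53 ± 0.16 (adjusted p = 0.00038). Its second probe did not pass (-0.07).

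Of 12 tested polyamine and one-carbon genes 3 differed, all negative (25%, against 3.07% of all genes). Besides Srm these were the serine hydroxymethyltransferases Shmt1 (-0.98 ± 0.22) and Shmt2 (-0.76 ± 0.19). The Shmt1 call was lost without any of 3 arrays (adjusted p up to 0.0737) and the Shmt2 call without any of 9 (up to 0.0983). The count was 1 without mutant anti-IgM replicate 2, mutant untreated replicate 1 or wild-type anti-IgM replicate 1.

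Trmt61a, the catalytic subunit of a tRNA adenosine methyltransferase, rose in both forms. It had 9.65, 9.59 and 9.81 with anti-IgM and 8.68, 8.60 and 8.44 untreated in mutant cells, against 11.51, 11.42 and 11.41 with anti-IgM and 8.79, 8.71 and 8.55 untreated in wild-type cells. The untreated groups lay close together and the anti-IgM groups lay apart. Its response was 1.11 with the mutant (adjusted p = 0.00293) and 2.77 with the wild-type form, and the difference was -1.66 ± 0.16 (adjusted p = 0.000189), with a 95% interval of -2.01 to -1.31. Of 14 tRNA modification genes 3 differed, all negative (21.4%, against 3.07% of all genes). Beside Trmt61a these were Mettl1 (-0.98 ± 0.18) and Wdr4 (-1.004 ± 0.253), the 2 subunits of the tRNA guanosine methyltransferase. Mettl1 passed without any 1 array, whereas Wdr4 was lost without any of 9 (adjusted p up to 0.102).

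Promoter sequences are shown for the 3 negative genes with the smallest p that have an entry in the RefSeq promoter table (GRCm38.p6), running from 250 bases before to 50 after the gene start, since E12 acts on E-boxes. Capitals mark each CANNTG. Xcl1 lies at chr1:164935473-164935772 on the minus strand and holds 0 such motifs, Trmt61a at chr12:111677855-111678154 on the plus strand with 1, which reads CACGTG, and Slc19a1 at chr10:77032489-77032788 on the plus strand with 2, of which the first reads CAGCTG and the second CAGGTG.
Xcl1: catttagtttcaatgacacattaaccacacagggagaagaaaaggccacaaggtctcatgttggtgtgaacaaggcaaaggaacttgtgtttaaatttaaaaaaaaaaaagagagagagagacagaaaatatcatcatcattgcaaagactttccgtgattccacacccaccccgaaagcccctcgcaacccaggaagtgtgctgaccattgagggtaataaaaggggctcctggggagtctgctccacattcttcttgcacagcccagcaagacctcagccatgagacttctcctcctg
Trmt61a: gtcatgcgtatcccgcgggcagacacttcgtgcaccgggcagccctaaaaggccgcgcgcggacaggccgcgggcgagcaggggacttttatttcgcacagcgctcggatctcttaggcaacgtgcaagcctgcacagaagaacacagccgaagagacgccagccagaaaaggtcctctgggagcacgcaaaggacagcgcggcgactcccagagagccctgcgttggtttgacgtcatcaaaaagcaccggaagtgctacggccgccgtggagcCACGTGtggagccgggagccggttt
Slc19a1: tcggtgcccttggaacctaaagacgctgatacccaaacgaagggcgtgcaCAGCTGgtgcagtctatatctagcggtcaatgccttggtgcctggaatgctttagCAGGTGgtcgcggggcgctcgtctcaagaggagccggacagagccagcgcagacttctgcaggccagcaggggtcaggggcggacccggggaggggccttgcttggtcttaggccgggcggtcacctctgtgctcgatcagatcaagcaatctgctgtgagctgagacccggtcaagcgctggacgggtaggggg

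Genes of MYC and ribosome biogenesis gave the largest share of differences among the 32 gene lists. All lists were chosen with earlier results of these data known, so their shares are descriptions with no test. Of 18 tested members of the MYC list 12 had a negative difference and 0 a positive one, against 3.07% and 3.17% of all genes. The median response was 0.50 with the mutant and 1.58 with the wild-type form, and the mutant response had the wild-type sign in all 18 although 0 passed in the mutant alone. Nop56, a core protein of box C/D small nucleolar particles, had 10.27, 9.73 and 10.26 with anti-IgM and 9.43, 8.88 and 9.05 untreated in mutant cells, against 11.61, 11.69 and 11.69 with anti-IgM and 8.91, 9.23 and 9.36 untreated in wild-type cells. The treated and untreated groups did not overlap in either form, and the difference was -1.53 ± 0.25 (adjusted p = 0.0049). Its partner Nop58 (-1.56 ± 0.28) and the ribosomal RNA methyltransferase Nop2 (-1.52 ± 0.24, other probes -1.47 and -1.28) differed by nearly the same amount. Myc, named after its values were seen, responded by 0.08 with the mutant and 1.64 with the wild-type form (difference -1.56, adjusted p = 0.0119). The count of 12 stayed between 9 and 13 with any 1 array left out and was 6 without joint quantile normalization.

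Other lists of growth metabolism gave smaller counts, read here against the 3.07% of all genes that were negative. Of 10 glycolysis genes 5 differed, all negative, among them Ldha, lactate dehydrogenase (-0.98 ± 0.21), and Pgam1, phosphoglycerate mutase (-0.97 ± 0.22, lost without any of 3 arrays, adjusted p up to 0.06). The list's median response was 0.04 with the mutant and 0.70 with the wild-type form. This count fell to between 0 and 3 when any of 7 single arrays was left out, to 0 without wild-type anti-IgM replicate 2, and it was 0 with an offset of 16. Ldha had 14.12, 13.60 and 13.84 with anti-IgM and 13.78, 13.47 and 13.51 untreated in mutant cells, which overlapped, against 13.47, 13.62 and 13.48 with anti-IgM and 12.18, 12.51 and 12.13 untreated in wild-type cells. Its call was lost without wild-type anti-IgM replicate 2 (adjusted p = 0.0559). The mutant untreated arrays already reached the level of the wild-type anti-IgM arrays.

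Of 15 translation initiation genes 3 differed, all negative, led by the helicase Eif4a1 (-1.34 ± 0.18, adjusted p = 0.0016; second probe -1.15, adjusted p = 0.0603). Of 16 chaperone genes 3 were negative, led by the mitochondrial chaperonin Hspd1 (-1.16 ± 0.21, second probe -1.87), and of 19 aminoacyl-tRNA synthetase genes 4 were negative, led by Eprs (-0.95 ± 0.18). Of 16 proteasome genes 2 were negative, led by the activator subunit Psme3 (-0.97 ± 0.16), and of 18 mitochondrial ribosomal protein genes 1 was negative (5.56%), Mrps2 (-0.98 ± 0.19), a share near that of all genes. Eif4a1, Hspd1, Eprs, Psme3 and Mrps2 passed without any 1 array. Counts were 2 to 6, 2 to 4, 1 to 3, 1 to 3 and 1 to 2 with single arrays left out, and that of translation initiation was 5 without mutant untreated replicate 3 and 6 without wild-type untreated replicate 3. None of these lists had a positive member, and their median responses ran from 0.12 to 0.15 with the mutant and from 0.44 to 0.83 with the wild-type form.

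**Figure D2:**
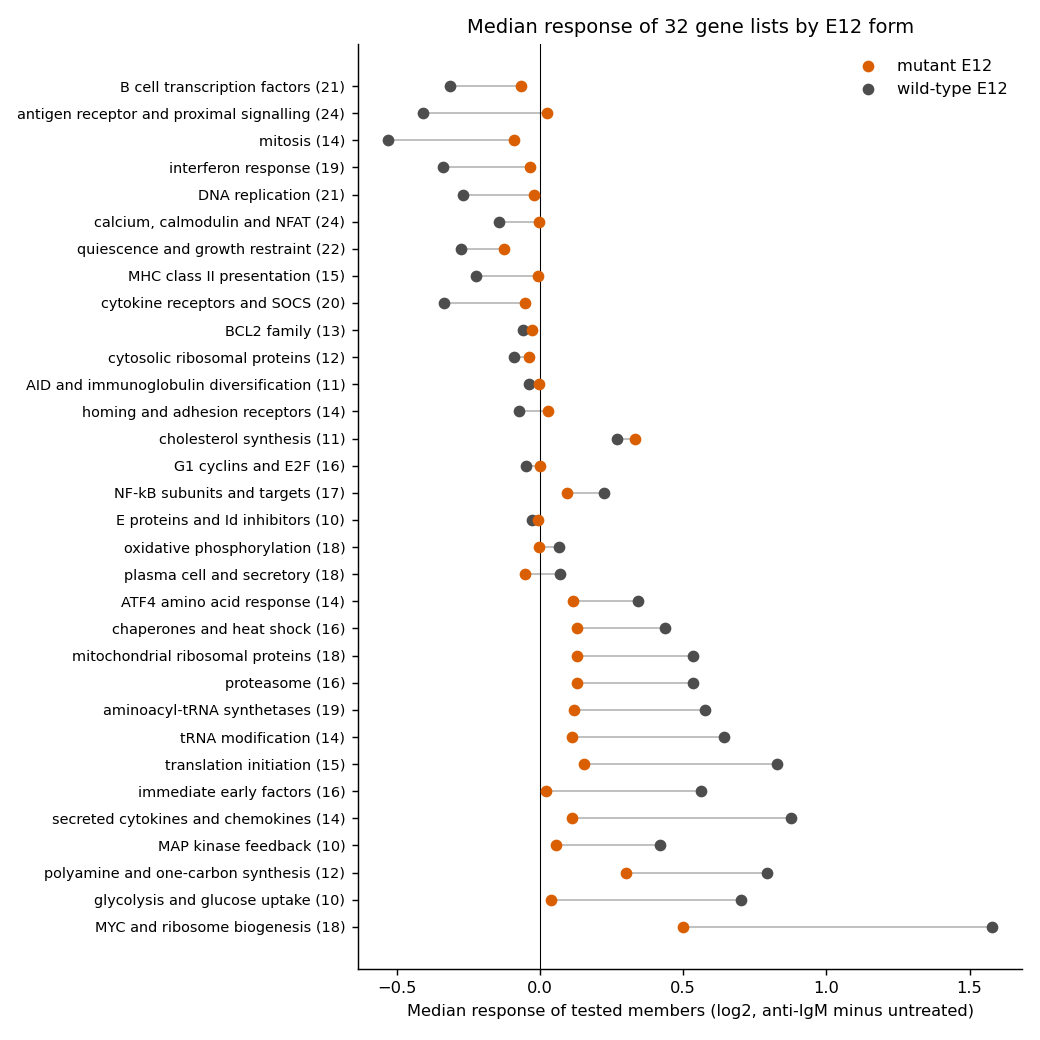
Each row is 1 of 32 gene lists, with the number of tested members in brackets, ordered by how their differences lay. Points give the median anti-IgM response of the members (log2, anti-IgM minus untreated) with mutant E12 (orange) and wild-type E12 (grey). The mutant medians lie between -0.13 and 0.50 and the wild-type medians between -0.53 and 1.58. For cholesterol synthesis the mutant median (0.33) lies above the wild-type one (0.27).

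Among signalling genes, the MAP kinase feedback list gave 3 negative and 1 positive of 10 (40%, against 6.25% of all genes). Dusp2, a phosphatase that switches off MAP kinases, had 10.34, 10.49 and 10.37 with anti-IgM and 9.65, 10.07 and 10.23 untreated in mutant cells, against 13.61, 13.22 and 12.85 with anti-IgM and 10.71, 11.07 and 11.09 untreated in wild-type cells. The 3 wild-type anti-IgM arrays stood above the other 9, and the difference was -1.85 ± 0.27 (adjusted p = 0.00229; second probe -1.50). The G-protein regulators Rgs16 (-1.07 ± 0.18) and Rgs1 (-1.89 ± 0.40) were the other 2 negative members. The positive member was Dusp10 (0.81, adjusted p = 0.0347 by limma), named after its values were seen. Without wild-type anti-IgM replicate 2 neither Rgs1 (adjusted p = 0.0502 by limma) nor Dusp10 passed, which left a count of 2 for the list.

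Of 16 immediate early factors 4 differed, all negative (25%, against 3.07% of all genes). Fosl2, an AP-1 subunit, had 5.96, 6.10 and 6.23 with anti-IgM and 5.71, 5.70 and 5.93 untreated in mutant cells, against 8.17, 7.63 and 7.60 with anti-IgM and 5.95, 6.03 and 6.03 untreated in wild-type cells (difference -1.48 ± 0.21, adjusted p = 0.00207). The mutant untreated arrays were all below the detection limit. Maff (-0.75 ± 0.17), Junb (-0.80 ± 0.19) and Ier2 (-0.73 ± 0.19) were the others, each lost without any of 4, 7 and 9 single arrays, with adjusted p up to 0.0645, 0.0864 and 0.0969. In wild-type cells Maff was at least 2.75-fold higher with anti-IgM, measured against the detection limit. The list's count was 1 or 2 without any of 7 single arrays. Egr3, a factor of the same list, is described below among the smallest differences.

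Further negative differences by the naming rule came from genes of other roles. Rasgef1b, a Ras family exchange factor, had 6.25, 6.19 and 6.21 with anti-IgM and 5.73, 6.03 and 5.89 untreated in mutant cells, against 7.99, 7.97 and 7.85 with anti-IgM and 6.14, 6.03 and 6.27 untreated in wild-type cells (difference -1.46 ± 0.16). Its mutant untreated arrays were below the detection limit, so its level with mutant E12 was at least 1.52-fold higher with anti-IgM, measured against the detection limit, and its second probe did not pass (-0.05). Uck2, a pyrimidine salvage kinase, differed by -1.64 ± 0.19, with both other probes past the threshold (-1.49 and -1.24). Gch1, which starts tetrahydrobiopterin synthesis, differed by -1.82 ± 0.22, the kinase Pim3 by -1.42 ± 0.18, the circadian repressor Ciart by -1.38 ± 0.18 and the receptor gene Fibcd1 by -1.42 ± 0.19, with adjusted p from 0.000617 to 0.00153. Rgcc, a regulator of the cell cycle, differed by -2.35 ± 0.42 (adjusted p = 0.00816), with levels of 8.34, 8.57 and 8.24 with anti-IgM and 7.81, 8.61 and 8.28 untreated in mutant cells, against 10.13, 9.14 and 8.98 with anti-IgM and 7.50, 6.54 and 6.70 untreated in wild-type cells. All 7 passed without any 1 array. The second probe of Gch1 did not pass (-0.60), while both other probes of Ciart did (-1.08 and -1.03).

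**Figure D3:**
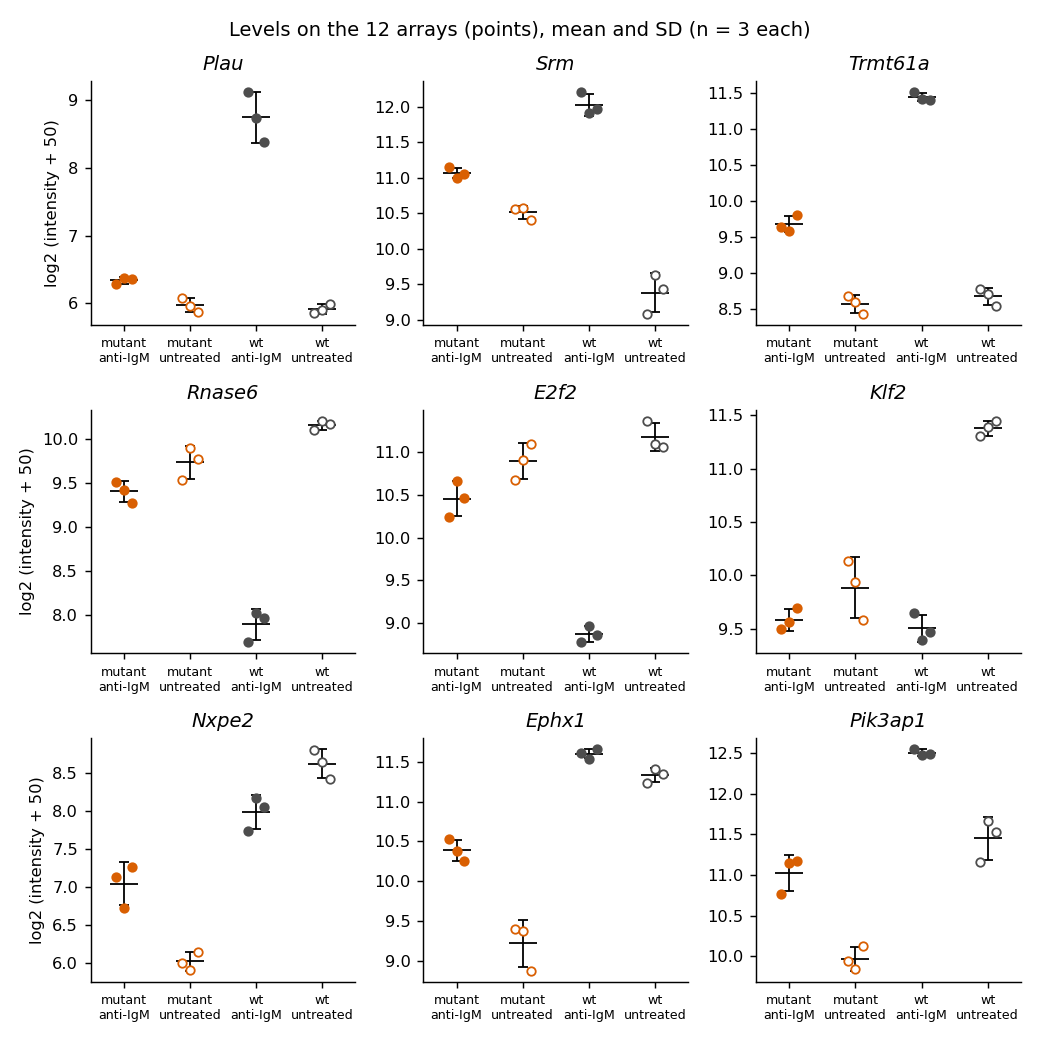
Points are the 12 arrays, bars the mean and SD of 3 arrays, and the y axes log2 (intensity + 50), for 9 genes in mutant E12 (orange) and wild-type E12 (grey) cells with anti-IgM (filled) and untreated (open). Plau, Srm and Trmt61a have negative differences, Rnase6, E2f2, Klf2, Nxpe2 and Ephx1 positive ones, and Pik3ap1 rose in both forms with a difference of 0.00. The y axes do not start at 0.

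Of the 319 genes with a positive difference, 311 fell in wild-type cells. The 12 with the smallest p had wild-type responses from -2.31 to -0.85 log2 units and mutant responses from -0.44 to 0.39, of which that of Btla was above 0. Lrrk2, a leucine-rich repeat kinase, had 7.66, 7.67 and 7.77 with anti-IgM and 7.83, 8.00 and 8.04 untreated in mutant cells, against 7.63, 7.98 and 8.03 with anti-IgM and 10.26, 10.13 and 10.07 untreated in wild-type cells. The mutant arrays of both groups lay at the low, wild-type anti-IgM level. The response was -0.26 with the mutant and -2.27 with the wild-type form (difference 2.02 ± 0.18, SE, n = 3 arrays a group; adjusted p = 0.000188). Of its 4 other probes 2 passed (1.82 and 1.85) and 2 did not (0.23 and 0.39).

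Rnase6, a secreted ribonuclease of host defence, had 9.51, 9.43 and 9.28 with anti-IgM and 9.53, 9.90 and 9.78 untreated in mutant cells, against 7.69, 8.02 and 7.96 with anti-IgM and 10.10, 10.21 and 10.17 untreated in wild-type cells. Here all 6 mutant arrays lay between the wild-type groups, nearer to the high, untreated one, and the difference was 1.94 ± 0.18 (adjusted p = 0.000188). Fgd2, an exchange factor for Cdc42, had 8.53, 8.76 and 8.95 with anti-IgM and 9.17, 9.13 and 9.24 untreated in mutant cells, against 7.48, 7.59 and 7.36 with anti-IgM and 9.61, 9.74 and 9.63 untreated in wild-type cells, and its difference was 1.75 ± 0.17 (adjusted p = 0.000189). No group of Rnase6 or Fgd2 overlapped with its counterpart in the same form.

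The promoters of these 3 genes, the positive ones with the smallest p, are given in the same way. Lrrk2 lies at chr15:91672974-91673273 with 1 CANNTG, Rnase6 at chr14:51128814-51129113 with 2, of which 1 reads CAGCTG, and Fgd2 at chr17:29360664-29360963 with 1, all on the plus strand of GRCm38.p6.
Lrrk2: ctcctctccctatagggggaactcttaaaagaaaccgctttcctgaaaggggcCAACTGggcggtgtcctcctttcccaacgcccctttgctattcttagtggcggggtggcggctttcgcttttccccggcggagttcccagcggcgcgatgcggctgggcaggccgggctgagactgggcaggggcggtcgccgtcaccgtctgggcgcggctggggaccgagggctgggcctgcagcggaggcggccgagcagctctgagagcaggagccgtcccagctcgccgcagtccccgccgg
Rnase6: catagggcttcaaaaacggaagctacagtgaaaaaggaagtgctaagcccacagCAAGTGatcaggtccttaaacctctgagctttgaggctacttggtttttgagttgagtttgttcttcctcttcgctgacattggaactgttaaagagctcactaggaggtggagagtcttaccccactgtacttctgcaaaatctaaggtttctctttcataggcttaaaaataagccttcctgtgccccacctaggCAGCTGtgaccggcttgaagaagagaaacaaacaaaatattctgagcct
Fgd2: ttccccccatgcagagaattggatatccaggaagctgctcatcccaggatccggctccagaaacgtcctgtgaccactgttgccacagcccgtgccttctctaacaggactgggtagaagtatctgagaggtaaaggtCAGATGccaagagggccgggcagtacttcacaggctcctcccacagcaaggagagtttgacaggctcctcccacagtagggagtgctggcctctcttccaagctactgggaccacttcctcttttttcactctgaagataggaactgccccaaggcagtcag

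In the 300-base windows of all 8192 tested genes with an entry, CANNTG was found in 63.5%. It reads the same on either strand and includes the 3 forms below. Among genes that differed it was found in 66.8% of 262 positive and 63.7% of 259 negative ones. CAGCTG was found in 15.3% of positive and 9.65% of negative genes against 14.4% of all, and CAGGTG, which was searched on both strands, in 17.6% and 16.2% against 17.0%. CACGTG, the form that MYC and MAX bind, was found in 9.54% of positive and 19.7% of negative genes against 10.5% of all. These shares are descriptions with no test, and a match is not a binding site.

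E2f2, a transcription factor of the cell cycle, had 10.25, 10.66 and 10.46 with anti-IgM and 10.68, 10.91 and 11.10 untreated in mutant cells, against 8.78, 8.96 and 8.86 with anti-IgM and 11.37, 11.10 and 11.06 untreated in wild-type cells. The 3 wild-type anti-IgM arrays stood below the other 9. The difference was 1.87 ± 0.20 (adjusted p = 0.000396), with 1 other probe past the threshold (1.85) and 1 not (0.26). Klf2, which keeps lymphocytes quiescent and controls their homing, had 9.50, 9.56 and 9.69 with anti-IgM and 10.14, 9.94 and 9.58 untreated in mutant cells, which overlapped, against 9.64, 9.39 and 9.47 with anti-IgM and 11.30, 11.39 and 11.44 untreated in wild-type cells. For Klf2 it was the wild-type untreated arrays that stood apart, above the other 9, and the difference was 1.57 ± 0.20 (adjusted p = 0.000984).

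Of 21 tested B cell transcription factors 9 were positive and 1 negative, against 3.17% and 3.07% of all genes. The median response was -0.07 with the mutant and -0.31 with the wild-type form. Ets1 had 10.24, 10.97 and 10.76 with anti-IgM and 10.54, 10.84 and 11.29 untreated in mutant cells, against 9.11, 9.61 and 9.61 with anti-IgM and 11.54, 11.74 and 11.80 untreated in wild-type cells (difference 2.02 ± 0.30, adjusted p = 0.00278), but its other probes did not pass (0.28 and 0.08). Pou2f2, the octamer factor OCT2, differed by 1.50 ± 0.21. The negative one was Irf4, a factor of activated B cells (-1.86, adjusted p = 0.0191), named after its values were seen, with a response of -0.23 with the mutant and 1.63 with the wild-type form. The count of 10 was 5 or 6 without any of 8 single arrays (mutant anti-IgM replicate 2 or 3, mutant untreated replicate 2, wild-type anti-IgM replicate 1, 2 or 3, wild-type untreated replicate 2 or 3) and 5 with an offset of 16. Of 10 tested genes in the list of E proteins and Id inhibitors 1 differed (10%, against 6.25% of all genes). This was the homeodomain factor Hhex (1.56 ± 0.24, adjusted p = 0.00342), which belongs to neither family. The E proteins Tcf3, Tcf4 and Tcf12 and the inhibitors Id2 and Id3 did not pass.

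Of 22 quiescence and growth restraint genes 6 were positive (27.3%, against 3.17% of all genes) and 0 negative. Among them were Mxd4, a MAX partner that opposes MYC (1.66 ± 0.25), Pdcd4, an inhibitor of translation (1.23 ± 0.22), and Txnip, an inhibitor of glucose uptake (1.37 ± 0.26). Their responses were -0.79, -0.27 and -0.40 with the mutant and -2.45, -1.51 and -1.77 with the wild-type form. The other probes of Mxd4 did not pass (0.73 and 0.37). The list's count stayed between 4 and 6 with any 1 array left out and was 3 without joint quantile normalization.

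Of 24 antigen receptor and proximal signalling genes 5 were positive (20.8%, against 3.17% of all genes) and 0 negative. Bank1, a B cell adaptor, had 7.51, 7.29 and 7.58 with anti-IgM and 7.76, 7.62 and 7.64 untreated in mutant cells, against 6.79, 7.36 and 7.33 with anti-IgM and 8.53, 8.82 and 8.83 untreated in wild-type cells (difference 1.36 ± 0.22, adjusted p = 0.0049). Cd22, an inhibitory coreceptor, differed by 1.51 ± 0.31 (adjusted p = 0.0148), while its other probes did not pass (0.21 and 1.24). The list's median response was 0.03 with the mutant and -0.41 with the wild-type form, and its count was 3 without mutant anti-IgM replicate 2, mutant untreated replicate 2 or wild-type anti-IgM replicate 1, 2 or 3. Btla, an inhibitory receptor of lymphocytes, had 9.91, 9.75 and 9.70 with anti-IgM and 9.49, 9.32 and 9.38 untreated in mutant cells, against 10.77, 10.69 and 10.62 with anti-IgM and 11.57, 11.61 and 11.44 untreated in wild-type cells. Its response was 0.39 with the mutant, where it did not pass, and -0.85 with the wild-type form, a difference of 1.24 ± 0.15 (adjusted p = 0.000968).

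Of 24 calcium, calmodulin and NFAT genes 2 were positive (8.33%, against 3.17% of all genes), the calcineurin subunit Ppp3cc (1.21 ± 0.22, adjusted p = 0.00923) and Nfatc3 (0.82 ± 0.22), whose call was lost without any of 9 single arrays (adjusted p up to 0.112). The count was 1 without any of 9 single arrays and 4 without mutant anti-IgM replicate 1 or mutant untreated replicate 3. The other probes of Nfatc3 did not pass (-0.19 to 0.64), nor did the second probe of Ppp3cc (0.93). Ppp3cc had 9.65, 9.96 and 9.66 with anti-IgM and 10.09, 10.48 and 10.50 untreated in mutant cells, against 8.04, 8.14 and 8.19 with anti-IgM and 10.26, 9.78 and 9.76 untreated in wild-type cells. Its groups did not overlap in either form.

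Of 19 interferon response genes 5 were positive (26.3%, against 3.17% of all genes) and 0 negative. They were led by the guanylate-binding GTPase gene Gbp3 (1.42 ± 0.20, adjusted p = 0.00229, second probe 1.83). Gbp2 (1.67 ± 0.36) was lost without mutant untreated replicate 2 or wild-type anti-IgM replicate 1 (adjusted p = 0.0558 and 0.0589), and its second probe did not pass (0.23, adjusted p = 0.835). Oasl2 (0.80 ± 0.21) was lost without any of 8 (up to 0.111). The count was 1 to 4 with single arrays left out. Of 20 cytokine receptor and SOCS genes 2 differed (10%, against 6.25% of all genes), a count that was 4 without wild-type untreated replicate 3. These were the cytokine receptors Il10ra (1.72 ± 0.24, adjusted p = 0.00187) and Ifngr2 (1.39 ± 0.28). Both other probes of Ifngr2 did not pass (0.39 and 0.60).

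The homing and adhesion list gave 1 positive and 1 negative of 14, the chemokine receptor Ccr6 (1.99 ± 0.29, second probe 1.71) and the hyaluronan receptor Cd44 (-0.999 ± 0.270), which was lost without any of 10 single arrays (adjusted p up to 0.126). The list of NF-kB subunits and targets gave 1 positive and 1 negative of 17, the costimulatory receptor Cd40 (1.24 ± 0.23) and the adhesion molecule Icam1 (-0.63 ± 0.14), which was lost without any of 3 (up to 0.066). Of 13 BCL2 family genes 1 was positive, the survival gene Bcl2 (1.37 ± 0.18), and of 11 genes of AID and immunoglobulin diversification 1 was, the repair glycosylase Mbd4 (0.86 ± 0.16). Of the 3 other Cd40 probes 0 passed (0.01 to 0.75), and of the 5 other Bcl2 probes 2 did (0.86 and 0.93). Of 16 G1 cyclin and E2F genes 2 were positive, E2f2 and Ccnd3 (0.97 ± 0.24, lost without any of 8 arrays, adjusted p up to 0.079), and Rgcc was negative. Of 15 MHC class II genes 1 was positive, the transactivator Ciita (1.06 ± 0.29), of 14 mitosis genes 1, the checkpoint kinase Bub1b (0.70 ± 0.17), and of 21 DNA replication genes 1, the polymerase subunit Pold1 (0.95 ± 0.24). Of 14 genes of the ATF4 amino acid response 2 were negative, Chac1 (-1.16 ± 0.28) and asparagine synthetase Asns (-0.81 ± 0.22). The counts of the MHC class II, mitosis, DNA replication and ATF4 lists were 0 to 2 with single arrays left out. Shares called were 14.3% for the homing and ATF4 lists, 11.8% for NF-kB and 18.8% for G1 cyclins. For BCL2, AID, MHC class II, mitosis and DNA replication they were 7.69%, 9.09%, 6.67%, 7.14% and 4.76%, near the 6.25% of all genes. Other probes of Cd44 (-0.88 to 0.03), Ccnd3 (-0.13 and -0.09), Asns (-0.40 and -0.08) and Ciita (0.74) did not pass, whereas that of Bub1b did (0.56).

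The remaining positive genes of the naming rule were the adhesion molecule Ceacam2 (1.50 ± 0.16), the kinase Sbk1 (1.66 ± 0.19), the beta-catenin cofactor Bcl9l (1.46 ± 0.17), the cytochrome Cyb561a3 (1.55 ± 0.18), the DNA damage enzyme Parp1 (1.47 ± 0.18) and the membrane protein Smim14 (1.70 ± 0.22). Their adjusted p ran from 0.000396 to 0.00106, their mutant responses from -0.30 to -0.04 and their wild-type responses from -2.002 to -1.514, and all passed without any 1 array. Parp1 had 10.95, 11.26 and 11.24 with anti-IgM and 11.26, 11.16 and 11.16 untreated in mutant cells, against 10.84, 11.14 and 11.20 with anti-IgM and 12.55, 12.67 and 12.52 untreated in wild-type cells. Of its other probes 1 passed (1.22) and 1 did not (0.62). As with Lrrk2, its mutant arrays lay at the wild-type anti-IgM level.

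In 4 lists 0 members differed past the threshold in the limma fit. Cholesterol synthesis genes (11 tested) had a median response of 0.33 with the mutant and 0.27 with the wild-type form, and the lowest p of a member was that of Insig1 (-0.72 ± 0.24, 95% interval -1.23 to -0.21, adjusted p = 0.105). Cytosolic ribosomal proteins (12 tested) had medians of -0.04 with the mutant and -0.09 with the wild-type form. Those of oxidative phosphorylation genes (18) were -0.002 with the mutant and 0.07 with the wild-type form, and those of plasma cell and secretory genes (18) were -0.05 with the mutant and 0.07 with the wild-type form. A member of the cholesterol list passed without wild-type untreated replicate 1 or 3, and a member of the plasma cell list without wild-type untreated replicate 1 or with an offset of 100.

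Of the wild-type responses of at least 1 log2 unit, the 10 with the smallest differences were picked for that and are described with the interval of the difference. Pik3ap1, the adaptor BCAP that links the receptor to PI3 kinase, had 10.77, 11.14 and 11.17 with anti-IgM and 9.94, 9.84 and 10.13 untreated in mutant cells, against 12.55, 12.47 and 12.49 with anti-IgM and 11.16, 11.67 and 11.53 untreated in wild-type cells. It rose by 1.06 with the mutant (adjusted p = 0.0241) and by 1.06 with the wild-type form, and the 95% interval of the difference ran from -0.45 to 0.46. A second probe gave -0.43 (not past the threshold). Fam167a rose by 1.23 with the mutant (adjusted p = 0.00878) and by 1.05 with the wild-type form, with an interval from -0.28 to 0.65. Both passed in each form on its own.

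Egr3, an early growth response factor, had 9.18, 9.56 and 10.31 with anti-IgM and 8.12, 7.81 and 9.15 untreated in mutant cells, against 12.52, 11.87 and 11.90 with anti-IgM and 11.42, 10.73 and 10.56 untreated in wild-type cells. Its response was 1.33 with the mutant, where it did not pass (adjusted p = 0.206), and 1.19 with the wild-type form, and the interval of the difference ran from -0.91 to 1.19. For Cd72, an inhibitory coreceptor, the response was 1.00 with the mutant and 1.02 with the wild-type form (interval -0.83 to 0.79), and for Bhlhe40, a transcriptional repressor of the E-box type, it was 0.93 with the mutant and 1.27 with the wild-type form (interval -0.98 to 0.30). Fxyd5, Tmem51, Tcea3, Urb2 and Mtap had differences from -0.36 to 0.35, each with an interval that included 0. Among the 10 genes these intervals reached as far as -1.27 and 1.19, and in 9 of the 10 they included differences of 0.63, the size of the smallest difference among the named genes that passed. The exception was Pik3ap1, whose interval ended at -0.45 and 0.46.

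Of the 628 genes, 9 also passed in the mutant response. Besides Trmt61a and Slc19a1 these were Cd63, a tetraspanin of endosomes, Pdxk, pyridoxal kinase, Myo1e, a class I myosin, Slc2a6, of the hexose transporter family, Ephx1, an epoxide hydrolase, Igsf9, an immunoglobulin superfamily gene, and Nxpe2. Cd63 had 7.40, 7.20 and 7.22 with anti-IgM and 6.25, 6.14 and 5.88 untreated in mutant cells, against 11.44, 11.55 and 11.60 with anti-IgM and 8.13, 8.99 and 8.97 untreated in wild-type cells. It rose by 1.19 with the mutant (adjusted p = 0.0471) and by 2.83 with the wild-type form, a difference of -1.65 ± 0.27 (adjusted p = 0.00517), and both other probes differed likewise (-1.69 and -1.46). The call was lost with an offset of 16 (-1.10, adjusted p = 0.12). Wild-type untreated replicate 1 lay below the other 2 of its group. The differences of Slc2a6 and Myo1e were lost without any of 7 and 10 single arrays (adjusted p up to 0.124 for Myo1e). Membership in these 9 also rests on the mutant response. Its count of 20 probes was 4 with weights per group and 2 to 57 with single arrays left out.

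Ephx1 was the 1 gene whose mutant response was larger with the same sign. It had 10.52, 10.38 and 10.26 with anti-IgM and 9.41, 9.38 and 8.88 untreated in mutant cells, against 11.61, 11.54 and 11.66 with anti-IgM and 11.24, 11.41 and 11.35 untreated in wild-type cells. The response was 1.17 with the mutant (adjusted p = 0.00878) and 0.27 with the wild-type form (adjusted p = 0.182). The difference was 0.90 ± 0.20 (adjusted p = 0.0203) and was lost without wild-type anti-IgM replicate 1 or 2 or wild-type untreated replicate 2 (adjusted p = 0.0546, 0.061 and 0.052). Nxpe2 passed in both responses with opposite signs. It had 7.14, 6.73 and 7.27 with anti-IgM and 6.01, 5.91 and 6.15 untreated in mutant cells, against 7.74, 8.17 and 8.06 with anti-IgM and 8.81, 8.64 and 8.43 untreated in wild-type cells, a response of 1.02 with the mutant and -0.64 with the wild-type form (difference 1.66 ± 0.23, adjusted p = 0.0017). Its second probe did not pass (0.42, adjusted p = 0.127).

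The other 3 genes with opposite responses of at least 0.5 log2 units were Zeb2, a zinc finger repressor, Cbr3, a carbonyl reductase, and Ffar2, a receptor for short-chain fatty acids. Zeb2 had 8.60, 8.37 and 8.76 with anti-IgM and 7.99, 7.91 and 7.91 untreated in mutant cells, against 8.68, 8.89 and 8.73 with anti-IgM and 9.10, 9.75 and 9.32 untreated in wild-type cells (difference 1.26 ± 0.22, adjusted p = 0.00711). In Cbr3 and Ffar2 the mutant groups overlapped, and in none of the 3 did the mutant response pass by itself (adjusted p = 0.172, 0.417 and 0.52). The Ffar2 difference (1.33 ± 0.29) was lost without any of 3 arrays (adjusted p up to 0.058). Second probes of Zeb2 and Cbr3 did not pass (0.56 and -0.87).

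There were 9 genes that differed without passing in the wild-type response. Ptpn6, the phosphatase SHP-1 that restrains receptor signals, had 11.69, 11.31 and 11.57 with anti-IgM and 11.16, 10.66 and 10.45 untreated in mutant cells, against 12.32, 12.42 and 12.34 with anti-IgM and 12.82, 12.92 and 12.71 untreated in wild-type cells. Treated arrays lay above untreated ones with the mutant and below them with the wild-type form, with no overlap in either. The responses were 0.77 with the mutant (adjusted p = 0.0933) and -0.46 with the wild-type form (adjusted p = 0.0507), neither past the threshold, and the difference was 1.23 ± 0.23 (adjusted p = 0.00948; second probe 1.08, adjusted p = 0.0325). The lymphoid factors Ikzf3, known as Aiolos (0.87 ± 0.19), and Irf8 (0.77 ± 0.19) showed the same order of groups in their means, but were lost without any of 2 and 9 single arrays (adjusted p up to 0.0586 and 0.0967). The others were Igsf9, Ephx1, Sfxn4, Ier2, Fah and Rabgef1, with differences from -0.73 to 0.90. Of these Igsf9 passed without any 1 array, and Sfxn4, Ier2, Fah and Rabgef1 were each lost without 9 or 10 of the 12. The second probes of Igsf9 and Sfxn4 did not pass (0.10 and 0.15).

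Whether the mutant levels sat near the untreated or the anti-IgM level of wild-type cells was described for the 619 genes that passed in both the difference and the wild-type response, with a measure chosen after the values were seen. The wild-type untreated mean is 0 on this scale and the wild-type anti-IgM mean is 1. Among the 311 positive genes, the mean of the 2 mutant groups lay below 0.25 in 84, between in 95 and above 0.75 in 132 (median 0.623). Among the 308 negative genes these counts were 156, 100 and 52 (median 0.241). Without joint quantile normalization the count near the wild-type untreated level was 137 in place of 84 among positive genes and exceeded that near the anti-IgM level (102), so the order of the 2 counts turned. Among negative genes the count near the wild-type anti-IgM level was 102 in place of 52, against 111 near the untreated level. Form and the authors' normalization cannot be told apart in these levels, and no test was made.

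**Figure D4:**
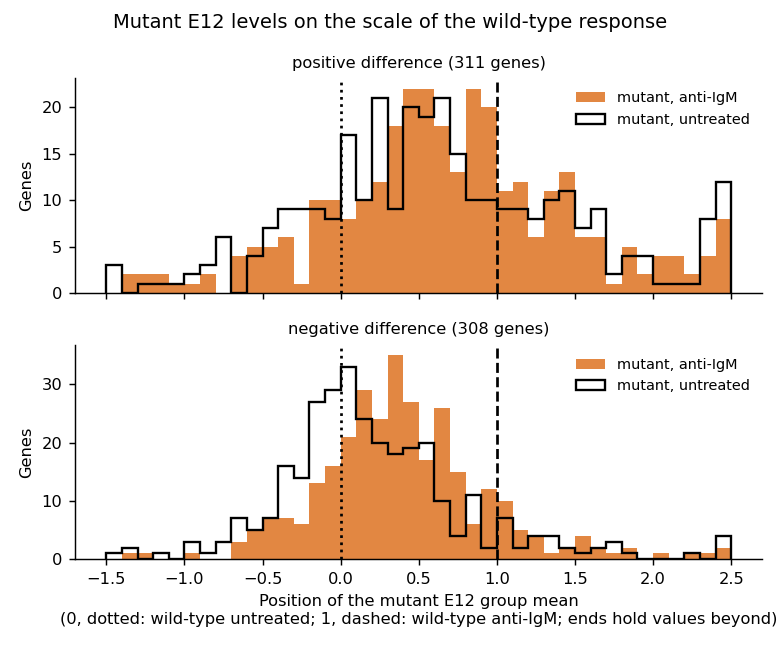
Histograms of the position of the mutant group means on the scale of the wild-type response, for 311 genes with a positive (top) and 308 with a negative difference (bottom), with the number of genes on the y axis. Filled bars are the mutant anti-IgM means and outlines the mutant untreated means. Positive genes have medians of 0.681 with anti-IgM and 0.584 untreated, and negative genes 0.36 with anti-IgM and 0.118 untreated, and values beyond the ends are held in the end bars.

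Of the 628 genes, 295 had more than 1 tested probe. In 267 of these all other probes had a difference of the same sign, in 106 another probe also passed with that sign, and in 0 did another probe pass with the opposite sign. Further probes are not given for every named gene, and some of those did not pass.

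Of 23 tested markers of other cell types 4 differed (17.4%), 3 positive and 1 negative, against 6.25% of all genes. Of 9 tested myeloid markers 2 were positive, Mpeg1 (1.68 ± 0.36, lost without wild-type anti-IgM replicate 2, adjusted p = 0.0512) and Adgre1. Adgre1 entered the test only through wild-type arrays and could show no fall with the mutant, so no fitted difference is given for it. Its place in the counts of 2 and 4 rests on the wild-type response alone. Adgre1, which marks macrophages, had 5.87, 5.86 and 5.72 and 5.77, 5.95 and 5.97 on the mutant anti-IgM and untreated arrays, all below the detection limit, against 6.59, 6.43 and 6.55 with anti-IgM and 8.79, 7.62 and 7.81 untreated in wild-type cells, where untreated replicate 1 was highest. The summed myeloid intensity was 1920 to 3354 with mutant E12 and anti-IgM and 2001 to 2875 with mutant E12 untreated, against 3539 to 4047 with wild-type E12 and anti-IgM and 3993 to 7110 with wild-type E12 untreated. Cd68, Csf1r, Fcgr1, Itgam and S100a9 were not among the tested genes. Without wild-type untreated replicate 1, 1017 probes differed, 806 of them among the 998.

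Of 2 tested NK cell markers 0 passed by limma, but their summed intensity was highest on the wild-type untreated arrays. It was 730.2 to 2629 with mutant E12 and anti-IgM and 691 to 1524 with mutant E12 untreated, against 1492 to 1998 with wild-type E12 and anti-IgM and 3808 to 5857 with wild-type E12 untreated. Prf1, perforin, had 11.37, 9.77 and 9.58 with anti-IgM and 10.60, 10.01 and 9.52 untreated in mutant cells, which overlapped, against 10.57, 10.61 and 10.99 with anti-IgM and 12.52, 11.91 and 12.06 untreated in wild-type cells, which did not. Its difference was 1.64 ± 0.54 (adjusted p = 0.099), and its second probe gave -0.13. Gzma, Gzmb, Klrb1c, Klrd1, Klrk1 and Ncr1 were not among the tested genes.

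Of 3 T cell and 5 dendritic markers 0 passed by limma, although 1 dendritic marker did without mutant anti-IgM replicate 2, mutant untreated replicate 3 or wild-type untreated replicate 3. The T cell sum was 824 to 1812 with mutant E12 and anti-IgM and 893 to 1711 untreated, against 752 to 856 with wild-type E12 and anti-IgM and 697 to 976 untreated. The dendritic sum was 551 to 609.5 with mutant E12 and anti-IgM and 364 to 678 untreated, against 179 to 214 with wild-type E12 and anti-IgM and 182 to 318 untreated. Of 3 erythroid markers 1 was negative, the transferrin receptor Tfrc (-1.05 ± 0.26), which growing cells also express and whose call was lost without any of 8 arrays. The erythroid sum was 1846 to 2895 with mutant E12 and anti-IgM and 1416 to 1845 untreated, against 3516 to 4794 with wild-type E12 and anti-IgM and 1113 to 1698 untreated. The 1 tested stromal and endothelial marker was positive (Pecam1, 1.24 ± 0.23). In a sorted bulk sample, fewer cells of a type and less RNA per cell cannot be told apart, and the part of other cells in the differences was not tested.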

How the data were processed

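Splenic B cell RNA had been hybridised to Illumina arrays, per the labels, and the deposited values are linear intensities that the authors had background-subtracted and normalized, as the values below 0 and the like distributions within each E12 form show. Which software did this is not stated by the labels or headers. The 12 non-normalized columns match no sample label and were not used.

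Each array's detection limit was the upper 1% point (p of 0.01) of a normal background estimated from its values below 0, and a probe was tested where it passed on at least 3 arrays. The intensities were quantile-normalized over 12 arrays, 50 was added and log2 taken. One limma fit (version 3.58.1, R 4.3.3) of 4 group means with moderated variances gave the difference of responses and both responses, with Benjamini-Hochberg adjustment over 19715 probes and a threshold of 0.05. It was run on simulated arrays with independent noise of the same SD in every group. The SDs differed between groups in the real arrays, so that run does not show how the fit behaves on them. Genes were named from GEO's platform annotation (34885 probes with 1 symbol, 18 with several, 10378 with none). Promoters are RefSeq's (GRCm38.p6), the first entry where a gene has several.

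Named were Tcf3, the 12 positive and 12 negative differences with the smallest p, genes that also passed in the mutant response, that did not pass in the wild-type response or that had opposite responses of at least 0.5, the 10 wild-type responses of at least 1 log2 unit with the smallest difference, and up to 3 members of each list. Members and lists were chosen with earlier results of these data known. Alternatives covered the offset, normalization, probe filter, weights, variance prior, replicate blocks and each array left out. Precision is limited by 3 arrays a group.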

Additional observations from a re-analysis of the deposited data

Results flagged for a closer look

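The results here are those for which the test of the difference between the E12 forms itself passed, which is what singled them out. It did so for 998 probes, 489 positive and 509 negative. Among genes that also passed in the mutant response, the difference (mutant minus wild-type, log2) was -1.66 for Trmt61a, -1.53 for Slc19a1, 1.66 for Nxpe2, -1.65 for Cd63, -0.95 for Pdxk, 0.86 for Igsf9, 0.90 for Ephx1, 0.76 for Slc2a6 and -0.75 for Myo1e. Among those that did not pass in the wild-type response it was 1.23 for Ptpn6, 0.87 for Ikzf3, 0.72 for Sfxn4, 0.77 for Irf8, -0.73 for Ier2, 0.80 for Fah and 0.65 for Rabgef1. Among genes with opposite responses it was 1.26 for Zeb2, -1.52 for Cbr3 and 1.33 for Ffar2. What lies behind these differences was not tested.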

How the results depend on the processing

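All 998 probes kept the sign of their difference under the 24 alternatives wherever they were tested, as did the 102 named genes that passed. Both sets were chosen by that difference. Weights per group, variance prior, replicate blocks and probe filter leave its fitted value unchanged and could not turn a sign. Of 18 named genes that did not pass, 5 changed sign (Cd72, Egr3, Fxyd5, Pik3ap1 and Tcf3). Of the 102, 60 passed under every setting and 64 without any 1 array. The 4 lost only under other settings were Cd63, Hspa9 and Pdxk (offset 16) and Eif2b3 (no joint quantile normalization). The count of differing probes (positive and negative) was 489 (263 and 226) with an offset of 16, 462 (243 and 219) without joint quantile normalization and 3308 (1715 and 1593) with weights per array. Without 1 array it ran from 456 to 1219 (222 to 615 positive, 234 to 604 negative). The mutant response gave 9 probes with an offset of 16, 11 with an offset of 100, 59 without joint quantile normalization, 36 with 75th percentile scaling, 7 with detection on all 12 arrays, 37 with no filter, 405 with weights per array, 4 with weights per group, 12 with an intensity trend and robust prior, and 2 to 57 without 1 array. The wild-type response gave 9045 with weights per array, 3148 with 1 probe per gene, where fewer features are tested, and 3783 to 5727 without 1 array. Departures from a share of 0.25 numbered 1 (offset 16) and 4 (no joint quantile), from 0.5, 1 (offset 16) and 3 (offset 100), and from 0.75, 39 (offset 16), 227 (offset 100) and 54 (no joint quantile). Same-numbered treated and untreated arrays were compared in their deviations from group means. They correlated at 0.582, -0.0242 and 0.519 with the mutant and 0.284, 0.194 and 0.144 with the wild-type form. Differently numbered arrays correlated at -0.733 to 0.466 with the mutant and -0.258 to 0.155 with the wild-type form. The numbers met the criterion for a pairing (every same-numbered pair above 0.1) with the wild-type form only and were not taken as a pairing. Some differently numbered pairs also lay above 0.1 in both forms. A replicate block gave 973 differing probes, 10 in the mutant response, and a replicate block within each form gave 2136 (1083 and 1053), 208 in the mutant response, and 18, 54 and 754 at shares of 0.25, 0.5 and 0.75. The causes of these shifts were not tested. Signals near background limit the low genes, whose fitted folds depend on the offset.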
